A study of Mus musculus with 4 samples.

Results

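Inward rectifier potassium channels and sulfonylurea receptors were examined in the mouse trigeminal ganglion, where the cell bodies of facial sensory neurons lie among their glia. The genes are 10 of the 56035 gene rows of the deposited expression matrix, taken by name: Kcnj2, Kcnj3, Kcnj4, Kcnj9, Kcnj10, Kcnj11, Kcnj12, Kcnj16, Abcc8 and Abcc9. Ganglia came from male C57BL/6 mice at 8 weeks of age, either wild type (WT, littermate controls) or carrying the TRPV1 K823R allele. That allele replaces a lysine of TRPV1, the heat- and capsaicin-gated cation channel of nociceptors, by arginine, and the series asks how SUMOylation of TRPV1 bears on itch and H1 receptors. The labels call this genotype both transgenic and a knock-in, and name no promoter, Cre line or founder. Each group had 2 libraries. The labels mention that 2 pairs of ganglia were isolated without saying how they were divided among libraries, so the p-values rest on the variation among these samples alone, part of which may be technical.

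Inward rectifiers are tetramers of Kcnj-encoded subunits that pass potassium more readily into the cell than out of it and hold the resting membrane potential near the potassium equilibrium potential. The Kir2 subunits are strong, constitutively open rectifiers. The Kir3 subunits form channels opened by G protein beta-gamma dimers after Gi/o-coupled receptors are activated. Kir4.1 is the glial potassium-buffering channel, prominent in satellite glia of sensory ganglia, and Kir5.1 joins it in heteromers. Kir6 subunits need a sulfonylurea receptor, SUR1 or SUR2, to form the ATP-sensitive (KATP) channel, which closes when cellular ATP is high.

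All inward rectifier subunits share a pore loop, and the bases that encode its selectivity filter are shown for both Kir6 genes, since the largest difference below is that of Kcnj11, and for Kcnj16 as a contrast in the middle codon. The stretches hold 45 bases of the coding sequence (GENCODE M21 transcripts, GRCm38), 5′ to 3′ in the sense of the gene, with the 3 codons of the glycine, tyrosine or phenylalanine, glycine signature in capitals.
Kcnj16: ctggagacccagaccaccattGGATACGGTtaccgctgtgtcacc
Kcnj11: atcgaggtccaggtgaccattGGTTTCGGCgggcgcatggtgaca
Kcnj8: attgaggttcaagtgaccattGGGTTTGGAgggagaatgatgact

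The stretch of Kcnj16 lies in a coding exon at chr11:111024889-111024933 (plus strand, exon 2). For Kcnj11 it lies at chr7:46099481-46099525 (minus strand, exon 1), and for Kcnj8, the other Kir6 subunit, at chr6:142566433-142566477 (minus strand, exon 3). A search of the 15 Kcnj coding sequences for the signature, limited to a window of codons around the pore loop, found it once in each gene. The middle codon encodes tyrosine in 13 of them and phenylalanine in 2, Kcnj11 and Kcnj8. The closest stretches among the Kcnj genes of the set were those of Kcnj2 and Kcnj4, which shared 39 of 45 bases.

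The longest identical run between transcripts of any 2 of the 10 genes was 32 bases (45 gene pairs compared), against sequencing reads of 150 bases. A read that aligns over its whole length therefore tells these genes apart. Exons of 3 of them overlap a gene on the opposite strand, and the strand setting is not given in the sources used here. They are Kcnj3 with Gm26794 (1083 bases), Kcnj9 with Gm36937 (172 bases) and Abcc9 with 5330439B14Rik (162 bases). Gm36937 and 5330439B14Rik were listed at 0 in every library. Gm26794 was looked up by its GENCODE M21 identifier and had no row in the matrix, so its level is unknown. Abcc9 also carries a stretch found at 95% identity or more, over 124 to 145 bases, in transcripts of 74 other genes, so reads from it are uncertain.

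Values are TPM, transcript abundance per gene length scaled to one total per library, and the read depth of a library is unknown. Levels of different genes can be set side by side as far as the gene lengths used hold. For Kcnj3, Kcnj9 and Abcc9 these lengths (1679, 2265 and 6213 bases) were shorter than an annotated transcript of the gene. Between 21838 and 22119 genes were above 0 TPM in a library. The neuronal identity of the tissue was visible in all libraries: 15 sensory neuron markers summed to 20130 and 17460 TPM in the WT libraries, against 19440 and 18810 TPM in the K823R libraries. Markers of 2 neighbouring sources set single libraries apart. The 13 oligodendrocyte and astrocyte markers summed to 25.4 TPM in WT replicate 1 and to 234 to 338 TPM in the other 3 libraries. Fibroblast and meningeal markers (11 genes) summed to 2945 TPM in K823R replicate 1 and to 356 to 1105 TPM elsewhere. Most of that highest sum came from Ptgds, at 2374 TPM there and 109 to 577 TPM elsewhere. Not all of the other markers peaked in that library. Trpv1, which carries the allele, had 39.2 and 30.6 TPM in the WT libraries, against 40.9 and 35.0 TPM in the K823R libraries, and its groups overlapped. Results that rest on these libraries are given below without them where that matters.

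**Figure D1:**
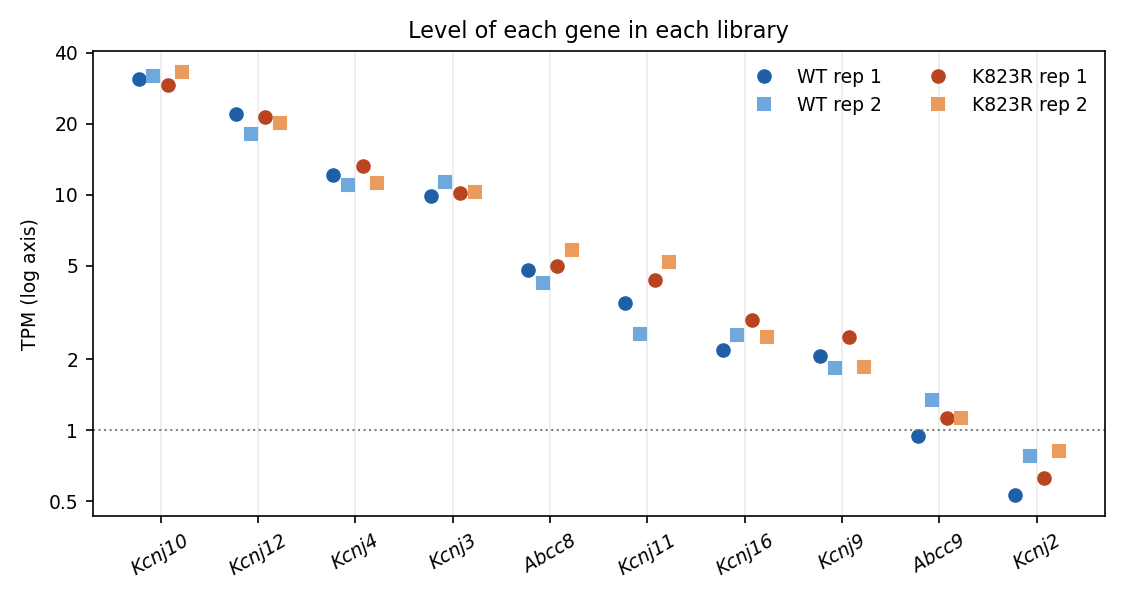
TPM (log axis) of the 10 genes in the 4 libraries, ordered by the mean over all libraries, one point per library; the dotted line marks 1 TPM. Kcnj10 is the highest at 29.1 to 33.2 TPM and Kcnj2 the lowest at 0.53 to 0.82 TPM, and the points of the groups are apart only for Kcnj11 and Abcc8.

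The glial channel gene Kcnj10 was the most abundant of the set, with a mean of 31.2 TPM over the 4 libraries, above 68.7% of the 15390 genes whose mean reached 1 TPM. Kcnj12 followed at 20.4 TPM. Their ranges did not overlap, and Kcnj12 was higher than the next gene, Kcnj4 (11.9 TPM), in all 4 libraries. Kcnj4 and Kcnj3 (10.4 TPM) did not differ beyond their spread, since their ranges overlapped and Kcnj4 was higher in 3 of 4 libraries. Kcnj3 did not overlap with the genes below it. The next 4 genes were Abcc8 (4.96 TPM), Kcnj11 (3.88 TPM), Kcnj16 (2.54 TPM) and Kcnj9 (2.06 TPM). Each neighbouring pair among these overlapped in range, although the order was kept within each library. At the low end stood Abcc9 (1.14 TPM) and Kcnj2 (0.69 TPM), which overlapped neither with each other nor with Kcnj9.

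Kir2 transcripts, those of the constitutive strong rectifiers, consisted mainly of Kcnj12 and Kcnj4. Kcnj12, which encodes Kir2.2, stood at 21.9 and 18.2 TPM in WT replicates 1 and 2, with 21.4 and 20.2 TPM in the K823R replicates. Both K823R values lay between the WT values. Kcnj4, which encodes Kir2.3, stood at 12.1 and 11.0 TPM in the WT libraries, against 13.3 and 11.3 TPM in the K823R libraries, with overlapping groups. Kcnj2, the gene of Kir2.1, had 0.53 and 0.78 TPM in the WT libraries, against 0.63 and 0.82 TPM in the K823R libraries, below the 1 TPM mean required for testing. Kir2.2 transcripts were thus listed at a higher level than those of Kir2.1 in every library. The genotype difference on the log2(TPM + 1) scale was 0.05 (SE 0.12) for Kcnj12 and 0.08 (SE 0.13) for Kcnj4 (limma adjusted p = 0.969 and 0.956).

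Kir3 transcripts, which encode the G protein-gated channels, were led by Kcnj3. This gene of Kir3.1 stood at 9.88 and 11.4 TPM in WT replicates 1 and 2, with 10.2 and 10.3 TPM in the K823R replicates, the K823R values again lying inside the WT range. Kcnj9, the gene of Kir3.3, had 2.07 and 1.83 TPM in the WT libraries, against 2.49 and 1.86 TPM in the K823R libraries. Its groups overlapped because K823R replicate 2 lay between the WT libraries. The differences were -0.05 (SE 0.12) for Kcnj3 and 0.10 (SE 0.22) for Kcnj9 (limma adjusted p = 0.974 and 0.966). Of the remaining Kir3 genes, Kcnj6 (Kir3.2) was between 0.44 and 0.54 TPM, and Kcnj5 (Kir3.4) was at most 0.05 TPM and listed at 0 in WT replicate 1. Kir3.1 does not form functional homomeric channels, and its transcript exceeded that of Kcnj9 by 4.77-fold and 6.21-fold in the WT libraries and by 4.09-fold and 5.53-fold in the K823R libraries. The size of this excess depends on the gene lengths used.

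Kir4.1 and Kir5.1 transcripts differed widely in level. Kcnj10 stood at 30.9 and 31.7 TPM in the WT libraries, against 29.1 and 33.2 TPM in the K823R libraries, so that the K823R libraries enclosed the WT values. Its log2 difference of -0.01 had the smallest SE of the 9 genes of the set that were tested, 0.098, and an interval (95% confidence) from -0.27 to 0.25 (limma adjusted p = 0.993). Kcnj16, the gene of Kir5.1, stood at 2.19 and 2.53 TPM in WT replicates 1 and 2, with 2.93 and 2.49 TPM in the K823R replicates (log2 difference 0.14, SE 0.19, limma adjusted p = 0.941). Its groups overlapped through WT replicate 2 and K823R replicate 2. Kcnj10 exceeded Kcnj16 by 14.1-fold and 12.5-fold in WT and by 9.93-fold and 13.3-fold in K823R, with K823R replicate 1 the lowest.

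Glial marker sums are given beside the Kcnj10 level because satellite glia and central glia are known to express Kir4.1. The oligodendrocyte and astrocyte markers summed to 25.4 and 234 TPM in the WT libraries, against 284 and 338 TPM in the K823R libraries, while Kcnj10 stayed between 29.1 and 33.2 TPM. Satellite glia markers (10 genes) summed to 943 and 1045 TPM in the WT libraries, against 934 and 1023 TPM in the K823R libraries. Within each group, the library with the lower Kcnj10 value also had the lower satellite glia, oligodendrocyte and astrocyte, and myelinating Schwann cell sums. The genes of the satellite glia list did not all share this order. Fabp7 followed it (199 and 280 TPM in WT, 165 and 271 TPM in K823R). Glul ran the other way in both groups (375 and 355 TPM in WT, 371 and 345 TPM in K823R). The macrophage marker sum followed this order too, so the order was not particular to glia. With 2 libraries per group, a shared order cannot show a link. The part of glia or macrophages in the Kcnj10 level was not tested. In these bulk samples, fewer cells of a type and less RNA per cell cannot be told apart.

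**Figure D2:**
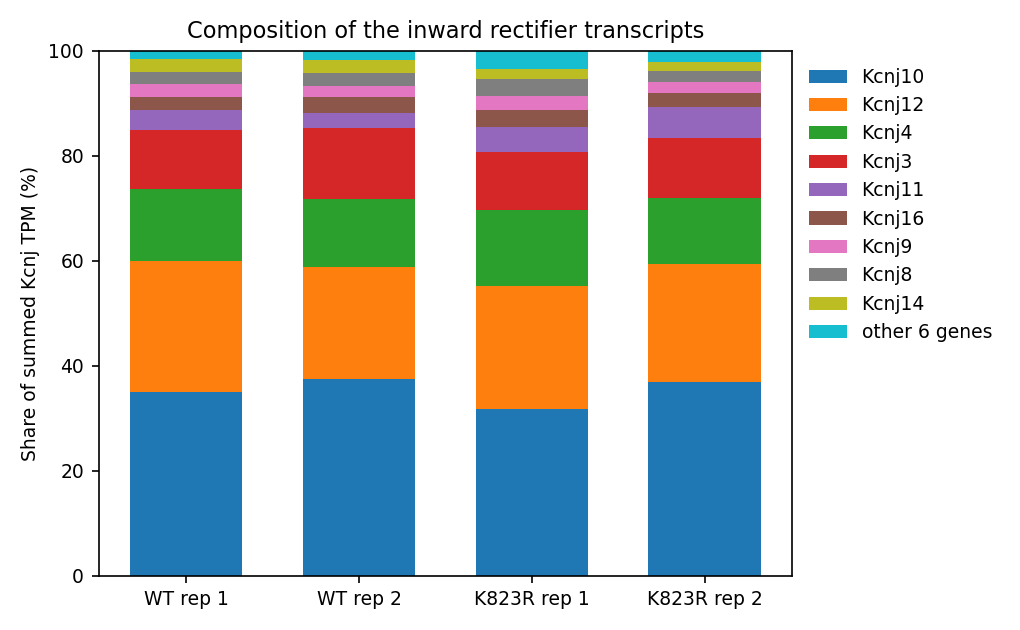
Share of each inward rectifier gene in the summed TPM of all 15 Kcnj genes (percent, stacked to 100) for each of the 4 libraries. Kcnj10 holds 31.8% to 37.4% and Kcnj12 21.4% to 24.9% of the sum, and Kcnj11 holds 3.92% and 3.01% in WT and 4.73% and 5.76% in K823R.

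The summed TPM of the 15 Kcnj genes was 88.2 and 84.8 in WT and 91.6 and 89.7 in K823R. Kir4 and Kir5 genes together held 35.1% to 40.4% of that sum and Kir2 genes 37.6% to 41.6%. Kir3 genes held 14.1% to 16.1%. The Kir6 share was 6.32% and 5.31% in WT and 8.02% and 7.85% in K823R, with both K823R libraries higher than either WT library. The same held for the small share of the Kir1 and Kir7 genes, 0.488% and 0.236% in WT and 1.95% and 0.725% in K823R. The groups overlapped for the other 3 shares.

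The largest genotype difference of the set was that of Kcnj11, a KATP channel gene. Kcnj11, which encodes the pore subunit Kir6.2, stood at 3.46 and 2.55 TPM in the WT libraries, against 4.33 and 5.17 TPM in the K823R libraries. The groups did not overlap, and the means were 3.005 ± 0.643 and 4.75 ± 0.594 TPM (SD, n = 2 each), a ratio of 1.58 in TPM. On the log2(TPM + 1) scale, where changes of scarce genes appear smaller, the difference was 0.53 (SE 0.19), and its 95% confidence interval ran from 0.018 to 1.04. It did not pass the test (limma adjusted p = 0.918, unadjusted p = 0.0448), and 650 other genes had a smaller p. The unadjusted limma p was 0.0707 with no filter on low values, 0.0656 with quantile normalization and 0.0807 with a replicate block. It stayed below 0.05 with a pseudocount of 0.1 TPM, median-of-ratios or upper-quartile scaling, and no variance trend. The difference was 0.36 without WT replicate 2 and 0.69 without WT replicate 1 (limma adjusted p = 0.860 and 0.656; the alternatives spanned 0.656 to 1).

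Abcc8 encodes SUR1, the regulatory subunit that binds sulfonylureas with high affinity. It stood at 4.80 and 4.22 TPM in WT replicates 1 and 2, with 4.99 and 5.81 TPM in the K823R replicates, again without overlap between the groups. WT replicate 1 and K823R replicate 1 were separated by only a small step. The log2 difference was 0.22 (SE 0.15, 95% confidence interval -0.18 to 0.61, limma adjusted p = 0.918). It was 0.12 without K823R replicate 2 and 0.31 without K823R replicate 1. Abcc9 encodes SUR2, the sulfonylurea receptor of muscle and mural cells. It had 0.95 and 1.34 TPM in WT and 1.13 TPM in both K823R libraries, inside the WT range (log2 difference -0.0041, SE 0.26, limma adjusted p = 0.998). Its interval, -0.68 to 0.67, was the widest of the 9 genes of the set that were tested.

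Kcnj11 and Abcc8 are neighbours in the genome. In GRCm38, Kcnj11 occupies chr7:46093953-46100764 and Abcc8 chr7:46104523-46180033, both on the minus strand, with 3758 bases and no other protein-coding gene between them. Kcnj8, the gene of Kir6.1, and Abcc9 form a similar pair on chromosome 6, separated by 16247 bases. Kcnj8 stood at 2.11 and 1.95 TPM in the WT libraries, against 3.01 and 1.87 TPM in the K823R libraries, so its groups overlapped (limma adjusted p = 0.951). The pattern of Kcnj11 and Abcc8 in the libraries was thus not seen in the chromosome 6 pair, although the difference between the pairs was not tested. Kcnj9 and Kcnj10 are a further pair, transcribed away from each other on chromosome 1 with 11891 bases between them, and Kcnj10 was the higher of them in every library. Kcnj16 and Kcnj2 lie 38195 bases apart on chromosome 11, the chromosome of Trpv1. Kcnj12 lies on it too, 12.16 Mb from Trpv1.

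**Figure D3:**
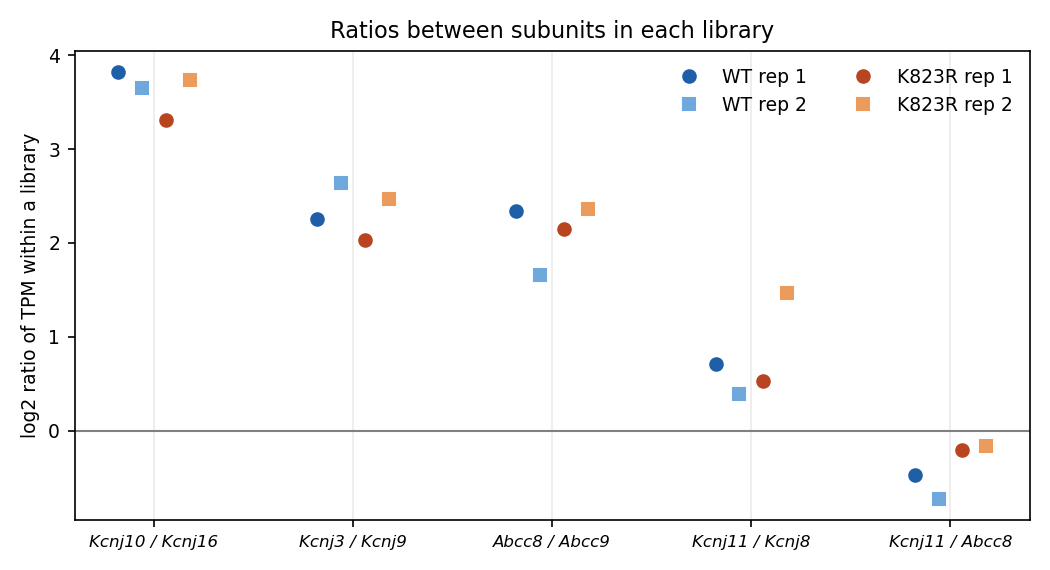
Log2 ratio of the TPM of paired subunits within each library, one point per library; 0 means equal TPM. The WT and K823R points overlap for 4 of the 5 ratios and are apart for Kcnj11 to Abcc8.

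Ratios within a library do not depend on the scaling between libraries. SUR1 transcripts were the larger share of the sulfonylurea receptor transcripts, with Abcc8 at 83.5% and 75.9% in WT and at 81.5% and 83.7% in K823R. The size of this share depends on the gene lengths used. Among the Kir6 transcripts, Kcnj11 made up 62.1% and 56.7% in WT and 59.0% and 73.4% in K823R. These groups overlapped. The ratio of Kcnj11 to Abcc8 was 0.721 and 0.604 in WT and 0.868 and 0.890 in K823R, below 1 in every library and higher in both K823R libraries. Of the 5 ratios compared, it alone separated the groups (log2 difference 0.41, exact two-sided permutation p = 0.3333, adjusted p = 0.667). With 2 libraries against 2 the test cannot give a smaller p. The other 4 ratios had an exact permutation p of 0.667 (adjusted p = 0.667 each).

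**Figure D4:**
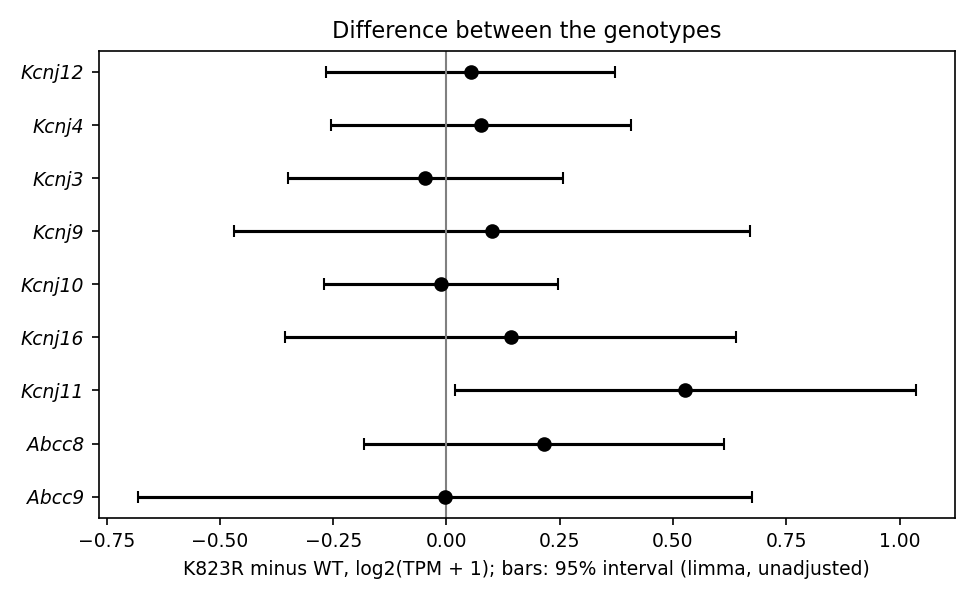
Difference between the genotypes, K823R minus WT in log2(TPM + 1), for the 9 genes whose mean reached 1 TPM; points are limma estimates and bars unadjusted 95% confidence intervals. The interval of Kcnj11 runs from 0.018 to 1.04, and those of the other 8 genes include 0.

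In the comparison across all genes, 0 of the 9 genes of the set that entered the fit had a limma adjusted p below 0.05, and 1, Kcnj11, had an unadjusted p below 0.05. Of all 15390 genes tested, 0.00650% passed and 4.76% had an unadjusted p below 0.05. Kcnj2 was left out by the filter on low values, and without that filter its difference was 0.06 (limma adjusted p = 0.941). Estimates were above 0 for 6 and below 0 for 3 of the 9 genes, with a median of 0.08. Of all genes 57.4% were above 0, with a median of 0.026. In 2 of the 9, Kcnj11 and Abcc8, the groups did not overlap, against 34.0% of all genes in either direction. Both had the K823R libraries on the higher side, which held for 19.4% of all genes, and 0 of 9 had them on the lower side (14.6% of all genes). These shares are near the background. The unadjusted 95% confidence intervals of the 9 genes, each for a single gene, reached no further than -0.68 and 1.04. They are on the log2(TPM + 1) scale, where changes of scarce genes appear smaller than in TPM.

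The 7 inward rectifier genes outside the set were scarce. Kcnj14 (Kir2.4) stood at 2.11 and 2.19 TPM in WT replicates 1 and 2, with 1.79 and 1.48 TPM in the K823R replicates, both K823R libraries being lower (log2 difference -0.26, SE 0.21, limma adjusted p = 0.918). Kcnj13 (Kir7.1), which is expressed in transporting epithelia such as the choroid plexus, stood at 0.43 and 0.20 TPM in the WT libraries, against 1.79 and 0.65 TPM in the K823R libraries. Its exons overlap exons of Gigyf2 on the opposite strand, as do those of Kcnj6 and Kcnj15 with predicted genes, so these values are uncertain. Kcnj13, like Kcnj8, was highest in K823R replicate 1. That library had the largest fibroblast and meningeal sum, most of it from Ptgds. That library also had the largest pericyte and smooth muscle, endothelial, skeletal muscle and pituitary sums. The part of those cells in either value was not tested. Kcnj15 was at most 0.10 TPM, and Kcnj1, the gene of the renal channel, was listed at 0 in every library. With Kcnj8 and Kcnj14 the only ones of these 7 that were tested, 0 passed limma.

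Genes that gate, anchor or accompany these channels did not pass the test either. Among 23 G protein and regulator genes that act on Kir3 channels, 14 had estimates above 0 and 9 below 0 (median log2 difference 0.05), and 0 passed limma. The smallest p values belonged to Gng2, a G gamma subunit (means of 223 and 191 TPM in WT and K823R), Gnai2, a Gi alpha subunit (203 and 222 TPM), and Rgs7bp, which anchors RGS7 at the membrane (114 and 101 TPM; limma adjusted p = 0.918 for each). Of 24 Gi/o-coupled receptors, 21 were tested, 12 with estimates above 0 and 9 below 0 (median 0.05), and 0 passed. Adra2a, the alpha-2A adrenergic receptor, stood at 1.56 and 2.27 TPM in WT replicates 1 and 2, with 3.38 and 3.13 TPM in the K823R replicates (log2 difference 0.56, SE 0.21, limma adjusted p = 0.918). The neuropeptide Y receptor Npy2r had means of 6.87 and 8.49 TPM, and the dopamine receptor Drd2 of 1.64 and 1.13 TPM (limma adjusted p = 0.918 for both).

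Inward rectifiers need the membrane lipid PIP2 to open, and several bind scaffold proteins through their C-terminal ends. Of 18 genes for PIP2 synthesis and channel scaffolds, 11 had estimates above 0 and 7 below 0 (median 0.05), and 0 passed limma. Flna, the actin crosslinker filamin A, had means of 26.3 and 35.4 TPM. Lin7c, a PDZ-domain scaffold, had means of 21.1 and 18.0 TPM, and Dlg4, which encodes PSD-95, of 101 and 114 TPM (limma adjusted p = 0.918 for the 3 genes). Of 14 genes for glial potassium and glutamate clearance, the setting in which Kir4.1 works, 10 had estimates above 0 and 4 below 0 (median 0.10), and 0 passed. Atp1b2, a sodium pump beta subunit of glia, stood at 53.9 and 50.7 TPM in the WT libraries, against 59.0 and 63.9 TPM in the K823R libraries (log2 difference 0.23, SE 0.08). Aqp4, the astrocyte water channel, stood at 4.12 TPM in WT replicate 1 and at 9.60 to 10.8 TPM in the other libraries (limma adjusted p = 0.918 for both genes). Aqp4 is also among the oligodendrocyte and astrocyte markers, and it was lowest in the library where those markers were lowest.

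**Figure D5:**
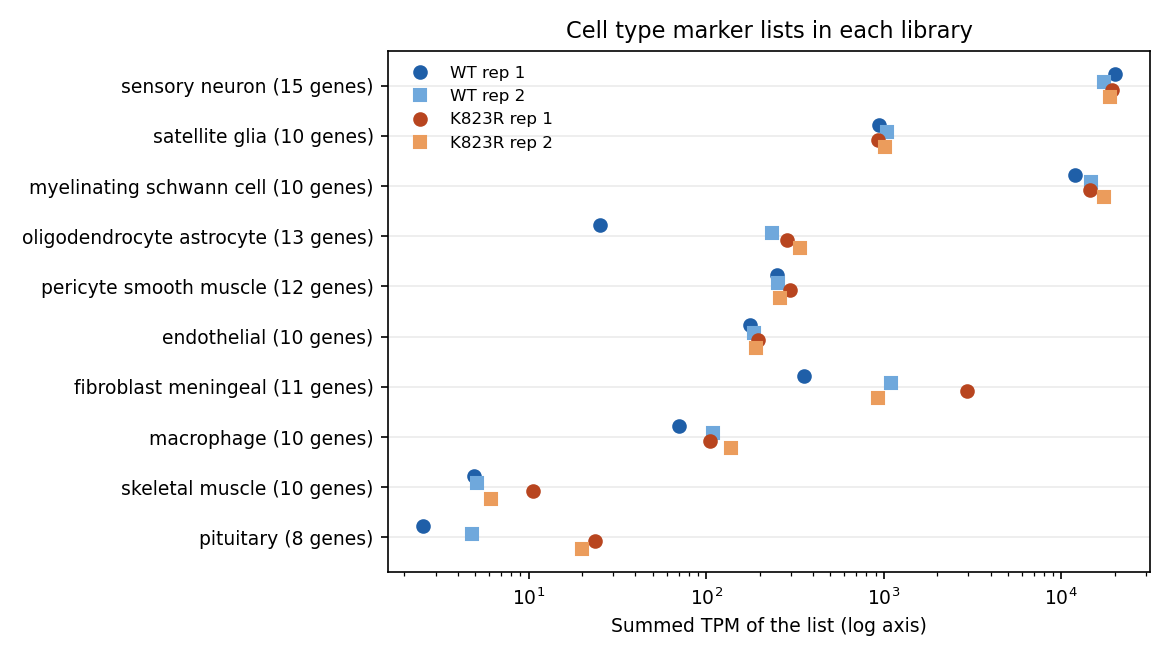
Summed TPM (log axis) of 10 cell type marker lists in each library, one point per library. The pituitary sum is at 2.54 and 4.80 TPM in WT replicates 1 and 2, with 23.8 and 20.1 TPM in the K823R replicates, and the oligodendrocyte and astrocyte sum is lowest in WT replicate 1 at 25.4 TPM.

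For 5 of the 10 marker lists both K823R libraries had a larger sum than either WT library, as for Kcnj11 and Abcc8. Among all single genes tested, 19.4% had this order. These lists were the oligodendrocyte and astrocyte, pericyte and smooth muscle, endothelial, skeletal muscle and pituitary lists. Pituitary endocrine cells are known to carry KATP channels, and the 8 pituitary markers summed to 2.54 and 4.80 TPM in the WT libraries, against 23.8 and 20.1 TPM in the K823R libraries. Of these, Lhb and Fshb were listed at 0 in every library, Pou1f1 was at 0 in 3 of 4 and at most 0.07 TPM, and Gh and Prl carried the difference. Macrophage markers (10 genes) summed to 70.5 and 109 TPM in the WT libraries, against 105 and 138 TPM in the K823R libraries. The 12 pericyte and smooth muscle markers, cells that express Abcc9 and Kcnj8, summed to 249 and 254 TPM in the WT libraries, against 297 and 262 TPM in the K823R libraries. Abcc9 was 1.13 TPM in both K823R libraries. Endothelial markers (10 genes) summed to 176.4 and 186.5 TPM in the WT libraries, against 195.6 and 189.9 TPM in the K823R libraries, a narrow separation. Skeletal muscle markers (10 genes), a tissue rich in Kcnj11, Kcnj12 and Kcnj2 transcripts, summed to 4.94 and 5.15 TPM in the WT libraries, against 10.6 and 6.16 TPM in the K823R libraries. Among them, both K823R libraries were above both WT libraries for Mylpf, a myosin light chain (1.66 and 1.79 TPM against 3.54 and 2.25 TPM), and Tnnc2, fast troponin C (0 and 0.32 TPM against 0.73 and 1.80 TPM). The groups overlapped for the other 8, of which Ckm, the muscle creatine kinase, was at 0.45 to 0.85 TPM and the myosin gene Myh4 at most 0.08 TPM. Myelinating Schwann cell markers (10 genes) summed to 11890 and 14760 TPM in the WT libraries, against 14620 and 17420 TPM in the K823R libraries. The part of any of these cells in the Kcnj11 and Abcc8 values was not tested.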

How the data were processed

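mRNA libraries from 2 WT and 2 K823R samples, grouped by sample title, were sequenced as paired reads of 150 bases, per the labels' protocols. The authors deposited one matrix of TPM per gene, with gene lengths and group means that were not used. Per the submitters' processing notes, fastp 0.19.5, HISAT2, RSEM and edgeR were used with GRCm38.p6, with no roles stated. How strand, annotation and filters were set is not given in the sources used here. TPM keeps no read total, so no counting interval is given, and a value of 0 is described as listed at 0.

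The 15390 genes whose mean over the libraries reached 1 TPM were tested with limma 3.58.1 in R 4.3.3. The two-sided test ran on log2(TPM + 1) with a variance trend, and p-values were adjusted over all genes (Benjamini-Hochberg, threshold 0.05). Differences are K823R minus WT. The fit was tested on simulated data, with changes larger than those of the 10 genes and in genes more abundant than Kcnj11 and Abcc8. It therefore does not cover small changes in scarce genes. Subunit ratios were compared by exact permutation. The genes and the lists (15 in all) were chosen with earlier results of these data known. Beside the 10 genes, the text names the other Kcnj genes, Trpv1 and the 3 genes with the smallest p in each pathway list. One gene that this rule takes is not reported here. Marker lists are given by their sums and the genes listed at 0. Other markers named from them (Gh, Prl, Mylpf, Tnnc2, Ckm, Myh4, Ptgds, Fabp7 and Glul) were chosen after their values were seen. Apart from these markers, no gene was picked for a pattern like that of another, because 4 libraries are too few. Positions and coding sequences come from GENCODE M21, and near copies from BLAST 2.17.0 (at least 95% identity over at least 100 bases). Alternatives were another pseudocount, filters, scalings, no variance trend, a replicate block and leaving out each library.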

Additional observations from a re-analysis of the deposited data

How the results depend on the processing

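Under the 12 alternatives, 0 members of the set passed limma in any of them, and the median difference of those tested stayed between 0.02 and 0.14. Kcnj11, Abcc8 and Kcnj16 kept a positive difference under every alternative in which they were tested (0.36 to 0.69, 0.12 to 0.31 and 0.06 to 0.23). For Kcnj11 and Abcc8 the groups did not overlap, so leaving out 1 library could not change the sign. A filter of at least 5 TPM in 2 libraries left 4 of the 10 genes, without these 3. Leaving out 1 library moved the differences across 0 for Kcnj12 (-0.076 to 0.18), Kcnj3 (-0.14 to 0.046), Kcnj10 (-0.10 to 0.079), Kcnj4 (-0.035 to 0.19), Kcnj9 (-0.044 to 0.24) and Abcc9 (-0.14 to 0.13). A lone library was then assumed to vary like the other group. With a pseudocount of 0.1 TPM the Abcc9 difference was 0.00043. The differences in log2 subunit ratios ran, without 1 library, from -0.42 to 0.00070 for Kcnj10 to Kcnj16, from -0.41 to 0.022 for Kcnj3 to Kcnj9, from -0.085 to 0.60 for Abcc8 to Abcc9, and from -0.026 to 0.92 for Kcnj11 to Kcnj8. That of Kcnj11 to Abcc8 ran from 0.29 to 0.54, and its sign could not change because its groups did not overlap. The cause of the sign changes among the other genes and ratios was not tested. With the replicate number as a block, 0 of the 9 genes passed, the median was 0.08, and 0 had an unadjusted p below 0.05. The replicate numbers are not stated to pair samples, and the replicate differences of the groups correlated at 0.05 across genes. Of all genes, 1 passed in the fit reported, 4 with the filter of 5 TPM, and 0 with no filter, no variance trend, the block or any library left out. The unknown depth limits the precision of the genes near 1 TPM, Abcc9 and Kcnj2.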
